A study of Mus musculus with 11 samples.

Results

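The transcripts of 10 immediate early genes were measured in 11 RNA-seq libraries of mouse embryonic dorsal telencephalon, the part of the forebrain that forms the neocortex. The genes were taken from a list and matched by symbol to the 46078 gene identifiers of the count files, and all 10 were found: Fos, Fosb, Jun, Junb, Jund, Egr1, Ier2, Atf3, Klf4 and Klf6. They are known to respond to the handling of tissue, and the first comparison sets cells sorted at E15.5 (E for embryonic day) against tissue taken unsorted at E12.5.

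All embryos were of the CD-1 strain. For the sorted cells, wild-type brains were electroporated in utero at E12.5 with the plasmid pCIG2, which carries GFP, and GFP-positive cells were isolated by fluorescence-activated sorting at E15.5. The 3 GFP control libraries carried the empty plasmid, and the 3 L3mbtl3 gain libraries carried pCIG2-L3mbtl3, which adds the coding sequence of L3mbtl3, a chromatin-associated protein. All 6 sorted libraries therefore share the electroporation, the plasmid with its GFP and the sort. They describe cells sorted as GFP-positive, not the whole tissue. Markers of microglia, endothelial and erythroid cells, given below, were also counted in them. The unsorted libraries came from E12.5 dorsal telencephalon dissected from L3mbtl3 -/- embryos (2 libraries, labelled knockout) and from controls, which were 2 L3mbtl3 +/- (heterozygote) libraries and 1 wild-type library. The controls of that experiment therefore include embryos that carry 1 mutant allele. How the mutant allele was made, how the cells were dissociated and how long either preparation took were not given in the sources used here. CD15-positive E14.5 progenitor samples named in the series' design were not analysed here.

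Immediate early genes are transcribed within minutes of a stimulus from factors that are already present, with no need for new protein synthesis. Many encode transcription factors: Fos and Jun family proteins pair through leucine zippers to form AP-1, Egr1 is a zinc finger factor, and Klf4 and Klf6 are Kruppel-like zinc finger factors. In the cortex they are known as reporters of neuronal activity, and in dissociated tissue they are known to be induced by warm enzymatic digestion and mechanical handling. Sorting, electroporation, age, genotype of the litters and the mix of cell types all differ between the sorted and the unsorted libraries here. Their parts in any difference cannot be told apart.

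Libraries held 16527551 to 26658718 counts. A floor of 3 counts, the most that a count of 0 allows, stood at 0.113 to 0.182 CPM by library totals, before the correction described next. CPM, a count scaled to a common library size, was here corrected by TMM factors (trimmed mean of M values, a correction for composition) computed once over the 11 libraries. L3mbtl3 itself was at 1226 ± 311 CPM in the gain libraries and 54.8 ± 5.02 CPM in the GFP controls (SD, n = 3 each). In the libraries labelled knockout it was higher than in their controls, against the direction of the label (68.8 ± 2.29 CPM, n = 2, and 57.3 ± 1.39 CPM, n = 3, log2 fold change 0.27, edgeR adjusted p = 0.0128, and 0.0550 without knockout replicate 2, with a range of 0.000154 to 1 over 14 alternatives, of which 10 kept the call). Which part of the gene the allele removes was not given, so these counts do not check the label. Libraries were classed by sex from Xist against the summed Y-linked Ddx3y, Kdm5d, Uty and Eif2s3y. Gain replicates 1 and 3 and knockout replicate 2 were classed as female and the other 8 libraries as male. This class partly follows the arm in both experiments, and it cannot mark a pool of both sexes. The dorsal telencephalon marker Emx1 was present in all 11 libraries, at 68.9 to 162 CPM. Emx1 alone does not show that the cells were all dorsal. Summed ventral telencephalon markers were at 26.6 to 896 CPM in sorted and 76.3 to 150 CPM in unsorted libraries. They were highest in GFP control replicates 1 and 2 (896 and 301 CPM). Summed levels of marker lists differed between the preparations: neuron markers reached 7792 to 11730 CPM in sorted and 2069 to 2703 CPM in unsorted libraries, and apical progenitor markers 990.5 to 2248 and 3440 to 3825 CPM. Endothelial and pericyte markers were at 8.16 to 26.8 CPM after sorting and 499 to 594 CPM without it, erythroid markers at 23.7 to 128 and 2412 to 3167 CPM, and microglia and macrophage markers at 15.2 to 70.8 and 130 to 148 CPM. No marker of these lists was at 0 in all libraries of either preparation. In bulk libraries, fewer cells of a type and less RNA per cell cannot be told apart. The labels do not tell whether each library is its own embryo or pool, so every p-value here speaks of the spread of these libraries, which may be technical.

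The sorted GFP control cells had higher levels of 6 of the 10 genes than the E12.5 control tissue, and none was called lower. Fos and Fosb differed by far the most, Jund by an intermediate amount, and Junb, Egr1 and Klf4 by the least of those that passed the test. Jun, Ier2, Atf3 and Klf6 did not pass it. Fosb was among the 6 but passed the filter on low counts through the sorted libraries alone, and 5 of the other 9 were called. Counted by overlap alone, the GFP controls were all above the E12.5 controls for 6 of the 10, against 34.9% of all genes tested, and all below for 0, against 37.6%. Calls were made with edgeR's quasi-likelihood test at a Benjamini-Hochberg adjusted p under 0.05 over all 15968 genes tested, of which 31.1% were called higher and 31.3% lower. Over the 10 genes the median log2 fold change was 1.14, against -0.03 over all genes tested. With such a large background, a call by itself says little, and the sizes below carry more of the description.

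Fos (ENSMUSG00000021250, GRCm38 chromosome 12, 85473890 to 85477273, plus strand, 4 exon blocks) encodes the founding Fos subunit of AP-1, which binds DNA only as a dimer with a Jun protein. GFP control replicates 1 to 3 held 24.0, 25.5 and 16.6 CPM of Fos, and gain replicates 1 to 3 held 20.7, 31.4 and 48.2 CPM. In unsorted tissue it was 0.645 and 0.438 CPM in the heterozygote libraries, 0.733 CPM in the wild-type library and 1.02 and 0.679 CPM in the libraries labelled knockout. Every sorted library was above every unsorted one, and the lowest sorted library stood 16.3 times above the highest unsorted one. The log2 fold change of GFP controls over E12.5 controls was 5.15 (SE 0.278, edgeR adjusted p = 3.84e-05), the 23rd highest of 15968. From 1209 counts in the 3 GFP controls and 43 in the 3 E12.5 controls, the ratio after scaling was 35.5, with an exact 95% interval of 26.2 to 49.4 that covers counting error only.

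Fosb (ENSMUSG00000003545, chromosome 7, 19302721 to 19310045, minus strand, 4 exon blocks) encodes a close relative of Fos with the same partners. The GFP controls held 13.3, 6.23 and 3.501 CPM of it, and the gain libraries 4.53, 6.89 and 12.8 CPM. In the 5 unsorted libraries it was almost absent, with 4 and 0 counts in the heterozygotes, 2 in the wild-type and 6 and 1 in the libraries labelled knockout. The 0 in heterozygote replicate 2 allows a level of up to 0.182 CPM by its library total, before the TMM correction. Again the groups did not overlap, and the lowest sorted library, GFP control replicate 3, stood 13.2 times above the highest unsorted one (0.266 CPM). Its counts in unsorted tissue were too low for it to be tested there, so it entered this comparison through the sorted libraries alone. Its fitted log2 fold change of 6.41 (SE 0.806) is therefore given as a size, with no test. From 434 against 6 counts the scaled ratio was 91.5, with an exact 95% interval of 41.7 to 251 for counting error alone. A log2 fold change of 4 or more was reached by 71 genes, 0.445% of those tested, and of the 10 only Fos and Fosb were among them.

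The stretches just before the start sites of these 2 genes are shown because their levels differed most between the preparations, a choice made after the values were seen. Both are from RefSeq (GRCm38.p6), 150 bases each, written 5′ to 3′ on the gene's strand and ending at the base before the start site. Fos lies at chr12:85473740-85473889 (plus strand) and Fosb at chr7:19310046-19310195 (minus strand). Capitals mark matches to the half-site TGACG of the cyclic AMP response element (CRE) and, in Fos, to the TATA box TATAAA.
Fos: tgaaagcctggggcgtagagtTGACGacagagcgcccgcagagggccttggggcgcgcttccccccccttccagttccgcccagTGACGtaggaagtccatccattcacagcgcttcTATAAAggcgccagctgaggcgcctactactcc
Fosb: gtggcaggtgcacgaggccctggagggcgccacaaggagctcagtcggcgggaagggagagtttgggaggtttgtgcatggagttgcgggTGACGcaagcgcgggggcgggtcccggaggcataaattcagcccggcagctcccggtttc

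The CRE is the binding site of CREB, a factor activated by cyclic AMP and calcium signals, and the CArG box is that of SRF. RefSeq promoter entries were at hand for 8 of the 10 genes, all but Egr1 and Ier2, and the 250 bases before each start were searched on both strands. The full CRE (TGACGTCA), the AP-1 site (TGANTCA) and the CArG box matched in 0 of the 8, against 1.56%, 6.73% and 1.48% of 32536 distinct promoter windows of the same length. The TATA box (TATAAA) matched in Fos alone, 33 to 28 bases before the start, against 12.3% of all windows. The half-site TGACG, which the full CRE contains and which was searched only after the full site gave no match, was found in 5 of the 8 and in 17.9% of all windows. In Fos it lay 129 to 125 and 66 to 62 bases before the start, in Fosb 60 to 56 and in Junb 106 to 102. In Klf4 it lay at 232 to 228 and in Atf3 at 7 to 3, in both as CGTCA, its form on the opposite strand. The RefSeq start used for Atf3 lies inside the gene model whose ends are given below, not at an end of it. The genes with a half-site included Atf3, whose level did not pass the test, and Jund, which rose, had none. A match is a description of letters, and a window without one says nothing about binding elsewhere.

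Jund (ENSMUSG00000071076, chromosome 8, 70697739 to 70700616, plus strand, a single exon) encodes the Jun protein known for steady expression in resting cells. Its level was 262, 316 and 358 CPM in the GFP controls, 244, 191 and 280.0 CPM in the gain libraries, 90.9 and 89.6 CPM in the heterozygotes, 90.2 CPM in the wild-type and 102 and 103 CPM in the libraries labelled knockout. All sorted libraries were above all unsorted ones, and the 3 E12.5 controls were close to one another (highest over lowest 1.01). The log2 fold change was 1.79 (SE 0.122, edgeR adjusted p = 7.26e-05). Fos and Jund were called higher in the main test and in each of 17 alternative settings.

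Jun (ENSMUSG00000052684, chromosome 4, 95049034 to 95052222, minus strand, a single exon) encodes the most active Jun partner of Fos. The GFP controls held 125, 88.2 and 64.1 CPM and the gain libraries 86.2, 96.3 and 121 CPM, against 82.4, 91.7 and 82.1 CPM in the E12.5 controls and 74.9 and 85.8 CPM in the libraries labelled knockout. The unsorted values fell inside the sorted range. The log2 difference was 0.11 with a 95% interval of -0.43 to 0.65 (edgeR adjusted p = 0.683), and the upper end of that interval lies well below the fold change of Fos.

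Junb (ENSMUSG00000052837, chromosome 8, 84976909 to 84978748, minus strand, a single exon), the third Jun protein and itself an induced one, stood at 3.67, 8.25 and 7.49 CPM with the empty plasmid and at 4.16, 5.32 and 7.76 CPM with L3mbtl3. Its unsorted levels were 2.61, 3.34 and 2.43 CPM in the controls and 3.63 and 2.46 CPM in the libraries labelled knockout. The groups did not overlap, but the lowest sorted library was only 1.01 times the highest unsorted one. The log2 fold change was 1.21 (SE 0.341, edgeR adjusted p = 0.0192). It missed the threshold without GFP control replicate 2 (adjusted p = 0.0655), heterozygote replicate 1 (0.0723) or the wild-type library (0.0743), and with the libraries labelled knockout as the tissue (0.0895). Over its 17 alternatives the adjusted p ran from 5.76e-05 to 0.0895, and 12 kept the call.

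Egr1 (ENSMUSG00000038418, chromosome 18, 34859823 to 34864984, plus strand, 2 exon blocks) responds to growth factor and synaptic signals. The GFP controls held 21.1, 13.5 and 7.99 CPM and the gain libraries 15.3, 10.5 and 24.7 CPM, against 4.65, 6.89 and 6.23 CPM in the E12.5 controls and 6.11 and 7.13 CPM in the libraries labelled knockout. GFP control replicate 3 was only 1.12 times the highest unsorted library. The log2 fold change was 1.27 (SE 0.364, edgeR adjusted p = 0.0207). It missed the threshold without GFP control replicate 2 (adjusted p = 0.0530), heterozygote replicate 1 (0.0795) or the wild-type library (0.0615), with library totals in place of TMM factors (0.0576) and with the libraries labelled knockout as the tissue (0.0810). Over 17 alternatives the adjusted p ran from 0.000136 to 0.0810, and 12 kept the call.

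Klf4 (ENSMUSG00000003032, chromosome 4, 55527143 to 55532466, minus strand, 5 exon blocks), also known as a pluripotency factor, stood at 10.4, 9.91 and 4.595 CPM with the empty plasmid and at 7.33, 5.89 and 7.19 CPM with L3mbtl3. Unsorted tissue held 3.53, 4.59 and 3.85 CPM in the controls and 3.76 and 4.202 CPM in the libraries labelled knockout. The lowest sorted and the highest unsorted library were level (ratio 1.00), so the groups only just did not overlap. The log2 fold change was 1.06 (SE 0.331, edgeR adjusted p = 0.0286). Leaving out any 1 library other than GFP control replicate 3 lost the call: adjusted p was 0.0633 without GFP control replicate 1, 0.0920 without replicate 2, 0.102 and 0.0606 without heterozygote replicates 1 and 2, and 0.0914 without the wild-type library. It was 0.0876 with library totals and 0.0801 with the libraries labelled knockout as the tissue, within a range of 5.78e-05 to 0.102 over 17 alternatives.

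Ier2 (ENSMUSG00000053560, chromosome 8, 84661331 to 84662852, minus strand, a single exon), a nuclear protein gene widely used as a dissociation marker, stood at 20.6, 25.2 and 22.3 CPM with the empty plasmid and at 23.6, 24.7 and 32.9 CPM with L3mbtl3. The E12.5 controls held 25.4, 25.2 and 23.0 CPM and the libraries labelled knockout 24.3 and 30.3 CPM. The log2 difference was -0.11, with a 95% interval of -0.39 to 0.17 (edgeR adjusted p = 0.444). With library totals in place of TMM factors it was -0.38 and passed the test (adjusted p = 0.0239, the lowest of 17 alternatives, which reached 0.896), a scaling under which the median of all genes was -0.30 in place of -0.03.

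Atf3 (ENSMUSG00000026628, chromosome 1, 191170296 to 191218039, minus strand, 5 exon blocks), a stress-induced partner of AP-1 proteins, was the scarcest of the 10 in sorted cells. Its 15, 32 and 24 counts in the GFP controls equalled 0.754, 1.899 and 1.31 CPM. In the gain libraries 16, 26 and 12 counts equalled 0.843, 1.36 and 0.690 CPM. The unsorted libraries held 1.24 to 1.61 CPM, inside the sorted range. The log2 difference was -0.08 with a 95% interval of -0.98 to 0.83 (edgeR adjusted p = 0.876), an interval wide enough to hold a change of either sign.

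Klf6 (ENSMUSG00000000078, chromosome 13, 5861489 to 5870393, plus strand, 4 exon blocks) was at 43.6, 48.2 and 58.0 CPM in the GFP controls, 40.1, 38.4 and 39.7 CPM in the gain libraries, 48.1, 48.8 and 46.3 CPM in the E12.5 controls and 56.8 and 54.7 CPM in the libraries labelled knockout. The log2 difference of GFP controls from E12.5 controls was 0.07 with a 95% interval of -0.22 to 0.35 (edgeR adjusted p = 0.654). With the gain libraries in place of the GFP controls the sign turned, and Klf6 was lower in sorted cells (-0.29, adjusted p = 0.00093). Over 17 alternatives its adjusted p ran from 0.000228 to 0.875.

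**Figure D1:**
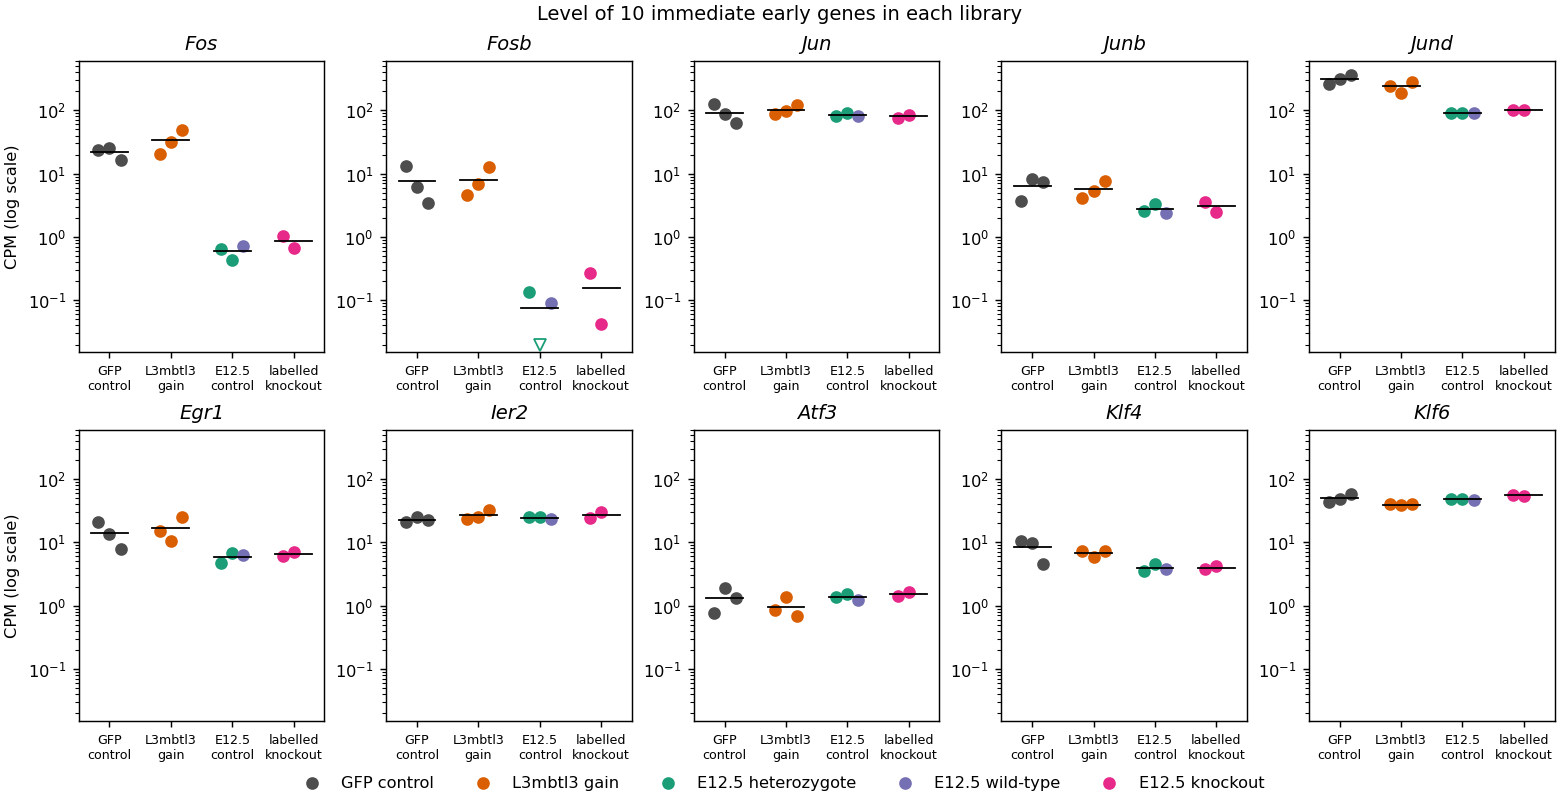
Level of each gene in each of the 11 libraries, in CPM on a log axis. Points are libraries, horizontal bars are means of the libraries shown in that column, and the open triangle marks a count of 0. Fos and Fosb separate the sorted from the unsorted libraries by 16.3 and 13.2 times at their closest, while Jun, Ier2, Atf3 and Klf6 overlap.

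The fold changes of GFP controls over E12.5 controls used neither the gain libraries nor the libraries labelled knockout, although the gaps between extreme libraries, the TMM factors of the CPM values and some alternatives above did. The contrast of these other 5 libraries shares no library with those fold changes. It was added after the data had been seen. Gain libraries over libraries labelled knockout gave a log2 fold change of 5.28 for Fos (edgeR adjusted p = 0.000795). Fosb, again tested through the sorted libraries alone, had a fitted value of 5.66. Their counts were 1834 against 39 for Fos and 441 against 7 for Fosb, or scaled ratios of 39.1 (exact 95% interval 28.5 to 55.1) and 52.4 (25.2 to 131). Jund (1.20), Egr1 (1.33), Junb (0.89) and Klf4 (0.75) were also called higher, at adjusted p from 0.00117 to 0.0270. The background was large here too: of 16339 genes tested, 5545 were called higher and 5915 lower, 70.1% in all. Klf6 was called lower (-0.52, adjusted p = 0.000228), and Jun (0.31), Ier2 (-0.03) and Atf3 (-0.66) did not pass the test. The GFP control and E12.5 control libraries are also arms of the 2 comparisons that follow, so those values are not independent of the ones above.

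Compared per kilobase of exon, Jund was the most abundant of the 10 in every group, followed by Jun and Ier2. In the GFP controls Jund stood at 108 ± 16.7 CPM per kb, Jun at 28.9 ± 9.55, Ier2 at 14.9 ± 1.53, Klf6 at 11.8 ± 1.74 and Fos at 9.35 ± 2.02 (SD, n = 3). The ranges of Ier2 and Klf6 overlapped there, as did those of Klf6 and Fos. Below them came Junb (3.52 ± 1.33), Egr1 (3.16 ± 1.47), Klf4 (2.72 ± 1.05) and Fosb (2.05 ± 1.35), each overlapping its neighbour, and then Atf3 (0.614 ± 0.266). In the E12.5 controls the first 4 kept this order with no overlap, from Jund at 31.4 ± 0.227 to Klf6 at 11.3 ± 0.308 CPM per kb. Fos was there the 9th of 10, at 0.257 ± 0.0644, below Atf3 (0.644 ± 0.0686), and Fosb was last at 0.0202 ± 0.0185.

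The make-up of the AP-1 families differed between the preparations. In the Fos family (Fos, Fosb, Fosl1 and Fosl2, summed per kb), Fos made up 79.7% ± 6.35 in the GFP controls and 24.5% ± 7.10 in the E12.5 controls. Fosl2, a family member that is no part of the list of 10, made up 3.96% ± 3.25 and 73.5% ± 8.58. These shares also move with the levels of Fos and Fosb. Fosl2 itself was at 3.96 ± 2.17 CPM in the GFP controls and 7.55 ± 1.22 CPM in the E12.5 controls. That log2 difference of -0.93 did not pass the test (edgeR adjusted p = 0.0697). The family sum was 11.8 ± 2.82 CPM per kb in the GFP controls, 16.7 ± 7.02 in the gain libraries, 1.06 ± 0.0476 in the E12.5 controls and 2.23 ± 0.259 in the libraries labelled knockout. Fosl1 had 0 counts in all sorted and E12.5 control libraries and 2 and 3 counts in the libraries labelled knockout.

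In the Jun family, Jund made up 76.6% ± 7.44 of the sum per kb in the GFP controls and 70.3% ± 3.80 in the gain libraries, against 52.6% ± 1.85 in the E12.5 controls and 57.0% ± 1.54 in the libraries labelled knockout. The share of Jun was 13.5% to 29.6% with the empty plasmid and 43.9% to 46.6% in E12.5 controls, and that of Junb 2.47% ± 0.858 and 2.54% ± 0.357. The sum of the Jun family was 140.7 ± 8.28 and 59.7 ± 1.79 CPM per kb in the same 2 groups. Neither the Jun family sums (131.9 to 148.4 against 58.4 to 61.7 CPM per kb) nor the Jund shares (68.9% to 83.7% against 50.5% to 53.7%) of these groups overlapped. The Jund share of the gain libraries lay at 66.8% to 74.3%, overlapping the GFP controls. These sums and shares are given as a description, with no test.

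**Figure D2:**
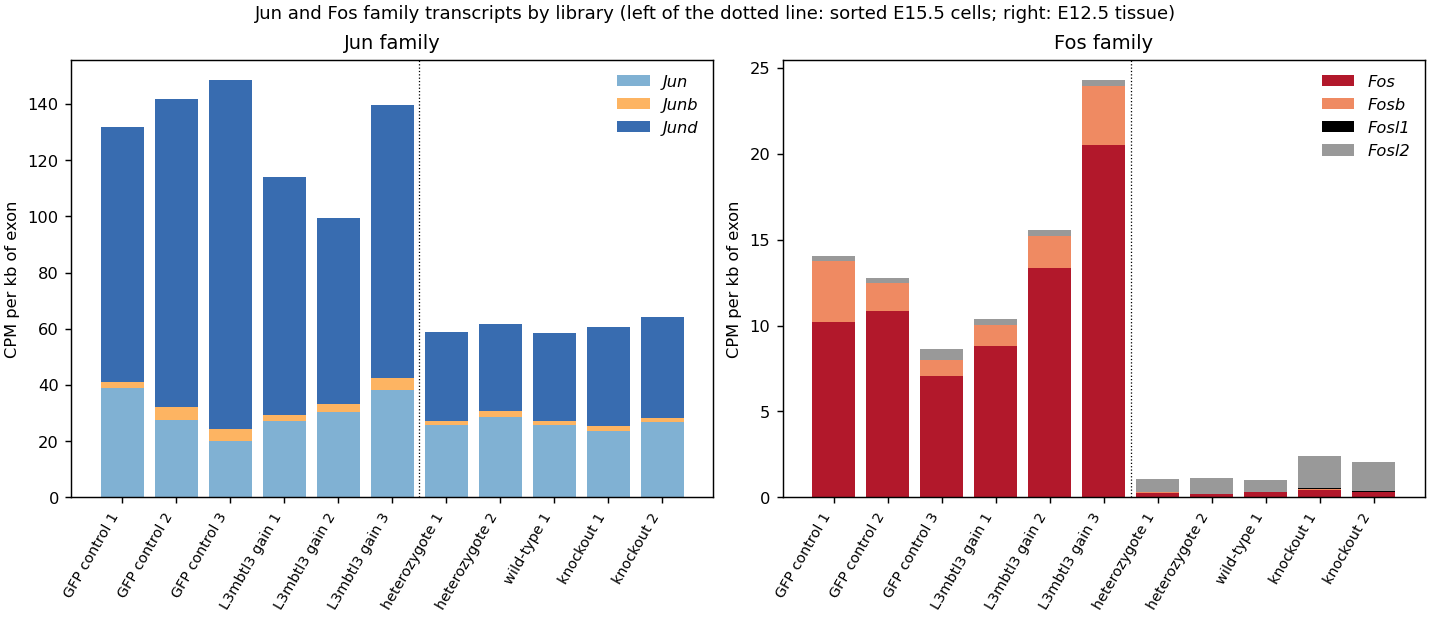
Jun family (left) and Fos family (right) transcripts in each library, stacked by gene in CPM per kb of exon, with sorted libraries left of the dotted line. Jund fills most of the Jun family bar in every sorted library (66.8% to 83.7%), and the Fos family sum is 8.65 to 24.3 CPM per kb in sorted and 1.01 to 2.41 in unsorted libraries.

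With added L3mbtl3, none of the 10 genes was called against the GFP controls by edgeR, where 2 of 14698 genes (0.0136%) were called. DESeq2 also called 0 of the 10, against 0.81% of all genes, and voom with quality weights called 1, against 13.6%. At an unadjusted edgeR p under 0.05 stood 1 of the 10, against 8.6% of all genes tested. That gene was Klf6, at 39.4 ± 0.890 CPM in the gain libraries and 49.9 ± 7.35 CPM in the GFP controls (log2 difference -0.33, SE 0.123, 95% interval -0.62 to -0.04, edgeR adjusted p = 0.556). Its adjusted p was 0.0447 with voom and up to 0.997 over 14 alternatives. Every gain library was below every GFP control for Klf6, which held for 7.55% of all genes tested. Other markers differed between these arms too. Summed microglia and macrophage markers were at 15.2 to 23.1 CPM in the gain libraries and 37.3 to 70.8 CPM in the GFP controls. Of 11 tested, 11 were lower, none was called and 10 had an unadjusted edgeR p under 0.05 (8.6% of all genes). Endothelial and pericyte markers were at 8.16 to 13.7 and 22.0 to 26.8 CPM. Of 10 tested, 10 were lower, none was called and 6 had an unadjusted edgeR p under 0.05. Every gain library was below every GFP control for 10 genes of the first list and 6 of the second (7.55% of all genes). All tested markers were also lower for erythroid cells (5), meninges and mesenchyme (6) and ventral telencephalon (9), and 3 of 4 for choroid plexus. Lower too were 8 of 11 apical progenitor, 7 of 10 neuron and 4 of 8 intermediate progenitor markers. Of all 14698 genes tested, 8017 were lower. None of these markers was called. The part of any of these lists in the level of Klf6 was not tested. No gene of the 10 had every gain library above every GFP control, against 8.99% of all genes.

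Fos averaged 33.5 ± 13.9 CPM in the gain libraries and 22.0 ± 4.76 CPM in the GFP controls (SD, n = 3). Its log2 difference was 0.61 with a 95% interval of -0.12 to 1.35 (edgeR adjusted p = 0.605), so the interval held both 0 and a level 2 times higher (1 on the log2 scale). Gain replicates 2 and 3 were above all GFP controls and replicate 1 was below GFP control replicates 1 and 2. Jund averaged 238 ± 44.6 against 312 ± 48.1 CPM, a log2 difference of -0.37 with an interval of -0.77 to 0.02 (adjusted p = 0.585). The other differences were 0.07 for Fosb, 0.14 for Jun, -0.15 for Junb, 0.25 for Egr1, 0.26 for Ier2, -0.43 for Atf3 and -0.28 for Klf4, all with overlapping arms.

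In E12.5 tissue, 9 of the 10 genes were tested between the libraries labelled knockout and their controls, and Fosb did not pass the filter on low counts. Jund and Klf6 were called higher and none lower, against 3.63% and 3.78% of 16361 genes. Jund was at 102 ± 1.06 CPM in the libraries labelled knockout (n = 2) and 90.2 ± 0.653 CPM in the controls (n = 3), a log2 fold change of 0.18 (SE 0.0434, edgeR adjusted p = 0.0272). Klf6 was at 55.7 ± 1.46 and 47.7 ± 1.30 CPM, a log2 fold change of 0.22 (SE 0.0536, edgeR adjusted p = 0.0275). Neither gene's arms overlapped, which held in the same direction for 18.7% of all genes tested (19.9% in the other).

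These calls rest on small differences. Among the 14 alternatives named below, heterozygotes only as controls and the wild-type library left out are the same fit. The term for embryo sex there marks only knockout replicate 2, the 1 library of this comparison classed as female. That of Jund was lost without heterozygote replicate 1 (adjusted p = 0.0619), heterozygote replicate 2 (0.108), knockout replicate 2 (0.0887) or the wild-type library (0.0979). That of Klf6 was lost without heterozygote replicate 1 (0.0592), heterozygote replicate 2 (0.0676), knockout replicate 1 (0.0687) or the wild-type library (0.117), and with DESeq2 (0.0598). Each was kept in 6 of 14 alternatives, with adjusted p from 0.00607 to 1 for Jund and from 0.00405 to 0.981 for Klf6. Ier2 passed the test only without knockout replicate 1 (log2 fold change 0.30, adjusted p = 0.0408), among 14 alternatives. The other 7 differences were 0.46 for Fos, -0.09 for Jun, 0.14 for Junb, 0.18 for Egr1, 0.16 for Ier2, 0.13 for Atf3 and 0.01 for Klf4, each with overlapping arms.

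**Figure D3:**
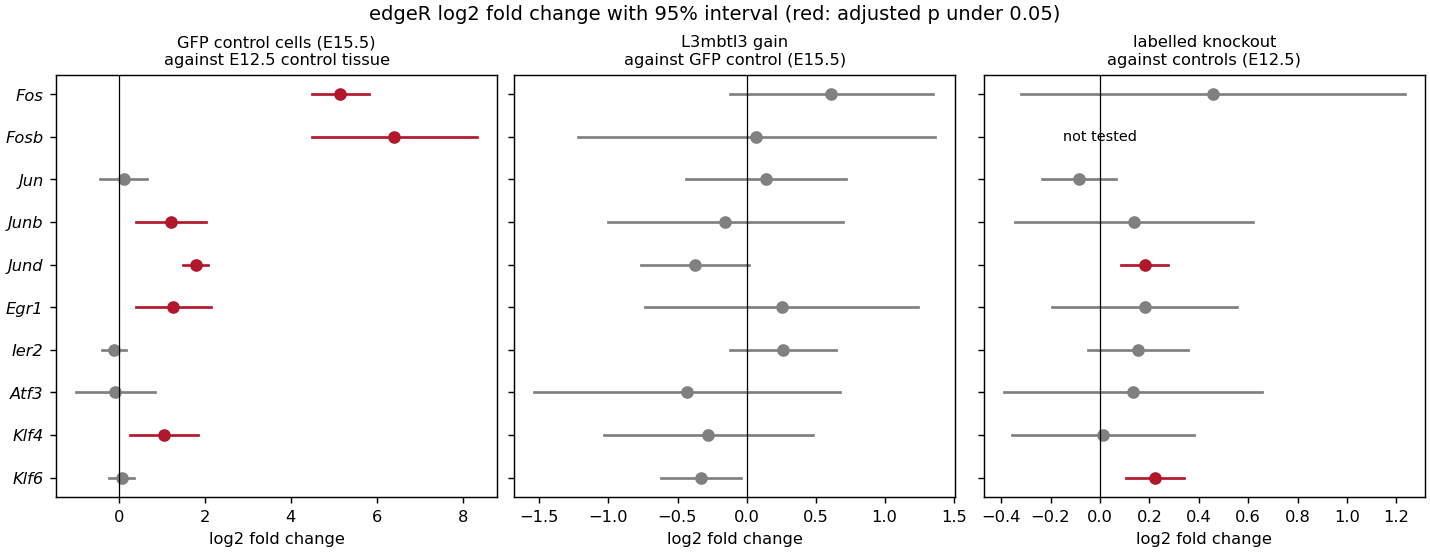
edgeR log2 fold changes of the 10 genes with 95% intervals in the 3 comparisons, with genes at an adjusted p under 0.05 in red. The horizontal scales differ: Fos and Fosb lie above 5 in the first panel, and the 2 called genes of the third panel lie at 0.18 and 0.22. Fosb entered the first panel through the sorted libraries alone, so its red mark is no test.

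Within the GFP control arm the 10 genes did not move as a block. Fosb, Jun, Egr1 and Klf4 were highest in replicate 1 and lowest in replicate 3, by 3.80, 1.94, 2.64 and 2.25 times. Jund and Klf6 ran the other way, highest in replicate 3 and lowest in replicate 1, by 1.37 and 1.33 times. Fos, Junb, Ier2 and Atf3 were highest in replicate 2. Summed apical progenitor markers were 2248, 1699 and 990.5 CPM in replicates 1 to 3 and ventral telencephalon markers 896, 301 and 26.6 CPM, in the order of Fosb, Jun, Egr1 and Klf4. Summed neuron markers were 7792, 9434 and 11730 CPM, in the order of Jund and Klf6. The part of cell makeup in these differences was not tested.

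In the gain arm, Fos, Fosb, Jun, Junb, Jund, Egr1 and Ier2 were all highest in replicate 3. The highest library stood above the lowest by 2.33 times for Fos, 2.83 for Fosb, 2.35 for Egr1 and 1.86 for Junb, and by 1.04 times for Klf6. Apical progenitor markers (1552 to 1598 CPM) and neuron markers (9293 to 9377 CPM) varied little between those 3 libraries. Ventral telencephalon markers were at 251 and 237 CPM in replicates 1 and 2 and 28.0 CPM in replicate 3. Replicates 1 and 3 of this arm were the libraries classed as female. L3mbtl3 itself was at 1517, 1262 and 898 CPM in replicates 1 to 3. That is the reverse of the order of Fos, Fosb, Jun, Junb and Ier2, but not of the other genes. The parts of ventral cells, of embryo sex and of the L3mbtl3 level in the spread were not tested.

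**Figure D4:**
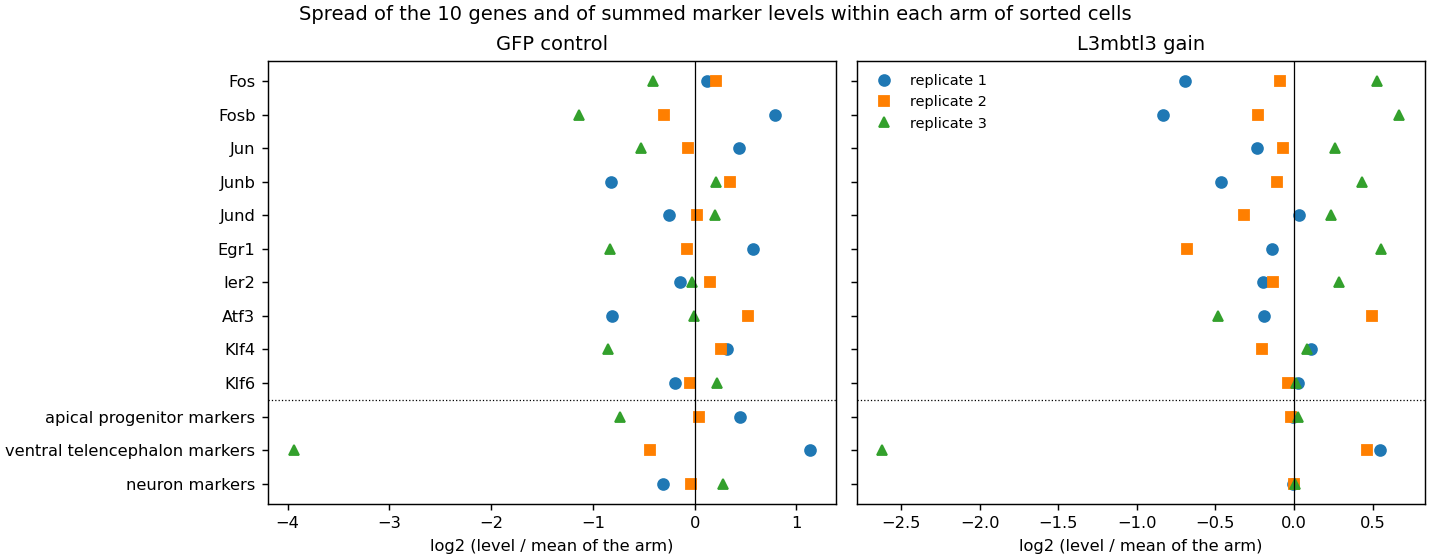
Level of each gene and of 3 summed marker lists in each sorted library, as log2 of its ratio to the mean of its arm (left GFP control, right L3mbtl3 gain; the scales differ). In the GFP controls, replicate 3 is lowest for Fos, Fosb, Jun, Egr1 and Klf4 and highest for Jund and Klf6, and in the gain arm it is highest for 7 of the 10 genes.

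Other early response genes moved in both directions between sorted cells and E12.5 tissue. Of 46 listed immediate early genes outside the 10, 42 were tested, 17 rose and 11 fell, near the background of 31.1% and 31.3%, with a median log2 fold change of 0.41. With library totals as the scaling the split was 13 and 15. Those that rose most were Nfil3 (3.26), a basic leucine zipper repressor, Plk2 (2.47), a kinase induced by synaptic activity, Rhob (2.10), a small GTPase, and Dusp1 (1.84), a phosphatase that switches off MAP kinases. Those that fell most were Zfp36l1 (-2.80), which directs mRNA decay, the MAP kinase phosphatases Dusp2 (-2.63) and Dusp6 (-1.78), and Gadd45b (-1.73). These are log2 fold changes, each but that of Dusp2 at an edgeR adjusted p of at most 0.0181. Dusp2 was at 0.491 CPM in the GFP controls and 3.01 CPM in the E12.5 controls. It passed the filter on low counts through the unsorted libraries alone. Its value is therefore a size with no test, although it is counted among the 11.

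Of 15 heat shock and chaperone genes, 13 were tested, 2 rose and 9 fell, where 31.1% and 31.3% of all genes did, with a median log2 fold change of -0.50. The 2 that rose encode Hsp40 co-chaperones, Dnajb1 (0.55, edgeR adjusted p = 0.00136) and Dnaja1 (0.34, 0.0210). Among those that fell were the mitochondrial chaperonin genes Hspd1 (-1.06) and Hspe1 (-0.68), Bag3 (-1.01) and Hsph1 (-0.77). Of 11 integrated stress response genes tested, 5 rose and 1 fell against the same background, with a median of 0.49. They included Chac1 (2.44), a glutathione-degrading enzyme, Ddit4 (1.08), Vldlr (1.20) and Ddit3 (0.77), which encodes CHOP, while the cystine transporter gene Slc7a11 fell (-3.22). With library totals, 4 rose and 1 fell.

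Genes for AP-1 partners and upstream kinases and cofactors were called higher for 10 of 24 and lower for 8 (8 and 12 with library totals), against 31.1% and 31.3% of all genes, with a median of -0.09. Mapk10 (2.15) and Mapk8 (1.23), which encode Jun N-terminal kinases, Map2k2 (1.18) and the SRF coactivator Mrtfa (1.13) rose. Elk3 (-1.68), an SRF partner, the ribosomal S6 kinases Rps6ka1 (-1.63) and Rps6ka3 (-0.95), and Mrtfb (-1.38) fell. Of 13 other Kruppel-like genes tested, 6 rose and 5 fell against the same background. Klf16 (1.70), Klf15 (1.33), Klf8 (1.29) and Klf7 (1.08) were higher in sorted cells. Klf1 (-1.96), the erythroid Kruppel-like factor, Klf2 (-1.59), known from endothelium, Klf9 (-0.97) and Klf3 (-0.70) were lower, alongside the erythroid and endothelial marker sums given above, whose part was not tested. Klf1, at 0.202 CPM in the GFP controls and 0.798 CPM in the E12.5 controls, passed the filter through the unsorted libraries alone. Its value is therefore a size with no test, although it is counted among the 5. Klf2 and Klf10 stand in both the immediate early and the Kruppel-like list.

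**Figure D5:**
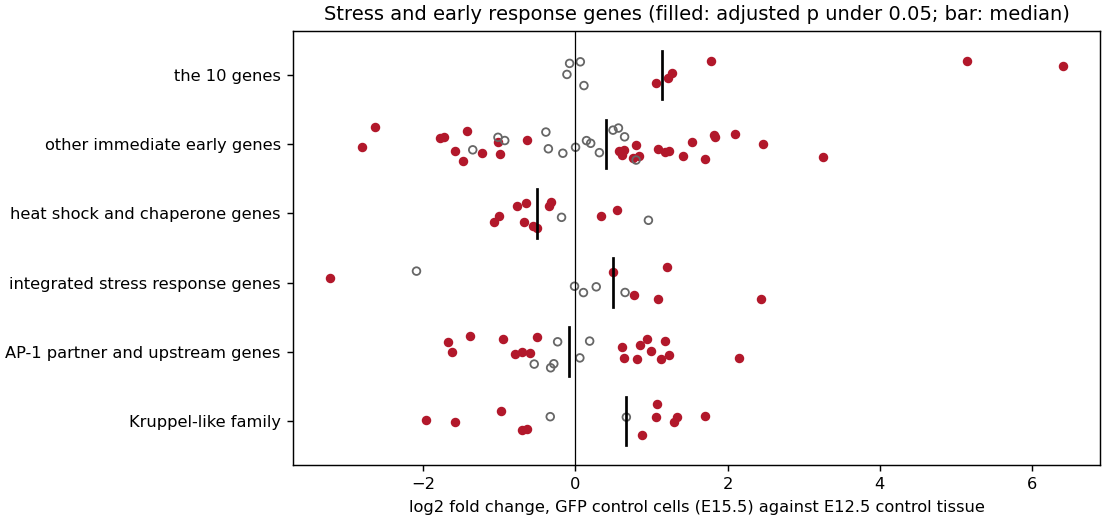
edgeR log2 fold changes of GFP control cells over E12.5 control tissue for the 10 genes and 5 related lists. Points are genes, filled at an adjusted p under 0.05, and bars are medians: 1.14 for the 10 genes, 0.41 for other immediate early genes and -0.50 for heat shock and chaperone genes. Fosb, Dusp2 and Klf1 each passed the filter on low counts through a single preparation, so their filled points are no test.

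With added L3mbtl3, edgeR called 0 genes in each of these 5 lists. At an unadjusted p under 0.05 stood 3 of 43 other immediate early genes, 2 of 14 heat shock genes, 2 of 11 integrated stress response genes, 2 of 23 AP-1 partner genes and 1 of 12 Kruppel-like genes, where 8.6% of all genes did. DESeq2 called 1 gene, of the integrated stress response list, where it called 0.81% of all genes. Voom called 4, 2, 2, 6 and 2 of the same lists, where it called 13.6% of all genes. The smallest p in the stress response list was that of Chac1, at 8.19 ± 2.21 against 3.90 ± 0.489 CPM (log2 difference 1.08, SE 0.263, edgeR adjusted p = 0.463).

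In E12.5 tissue, 4 of 42 other immediate early genes rose and 3 fell in the libraries labelled knockout, against 3.63% and 3.78% of all genes. Fosl2 was at 17.1 ± 1.27 CPM there (n = 2) and 7.55 ± 1.22 CPM in the controls (n = 3), a log2 fold change of 1.19 (SE 0.122, edgeR adjusted p = 0.000229). Sgk1 (0.42), Dusp6 (0.27) and Zfp36l1 (0.26) also rose. Arc (-0.90), a synaptic protein gene driven by neuronal activity, Btg1 (-0.29) and Gadd45g (-0.28) fell, and Gadd45g is also a marker of intermediate progenitors. Klf9 rose (0.99, edgeR adjusted p = 0.00284), as did Sesn2 (0.45), Asns (0.36) and Elk3 (0.27), while Slc7a11 (-0.74), Ddit4 (-0.28) and Mapk8 (-0.24) fell. Of 13 heat shock genes edgeR, DESeq2 and voom each called 0, where the latter pair called 5.9% and 5.2% of all genes, and 1 had an unadjusted edgeR p under 0.05, against 22% of all genes. Choroid plexus markers were lower in the libraries labelled knockout (259 to 262 CPM) than in the controls (545 to 620 CPM), and ventral telencephalon markers higher (118 to 150 against 76.3 to 104 CPM). Neuron markers were lower for 10 of 10 genes, of which 3 fell (2069 to 2265 against 2399 to 2703 CPM), and intermediate progenitor markers, Gadd45g included, for 8 of 8, of which 4 fell (837 to 839 against 1003 to 1037 CPM). The part of these cell types in the gene differences was not tested.

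The genes whose profile over the 11 libraries was most like that of Fos were found by centring log2(CPM + 0.5) on each gene's own mean and averaging the absolute difference from Fos. Among 12869 named genes with a mean of at least 1 CPM, the closest were Pou3f1 (0.39), Trim67 (0.40), Abcc8 (0.40), Mpped1 (0.41) and Shtn1 (0.41). Pou3f1 encodes a POU-domain transcription factor, and its level was 155 to 301 CPM in sorted and 5.94 to 7.99 CPM in unsorted libraries. Mpped1 ran from 676 to 1408 CPM in sorted and from 48.5 to 58.7 CPM in unsorted libraries. The nearest of the other 9 genes was Fosb (0.53), followed by Jund (1.48), Egr1 (1.64), Junb (1.77) and Klf4 (1.83). Jun (2.14), Ier2 (2.25), Klf6 (2.32) and Atf3 (2.37) were farthest. With only sorted and unsorted libraries at 2 ages, this measure mostly ranks genes by how closely their difference between the preparations matches that of Fos.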

How the data were processed

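Polyadenylated RNA was sequenced as stranded, single-end libraries, per the labels' protocols. The deposited values are raw read counts per gene, made with featureCounts 2.0.1 with reverse-strand counting over exons of an Ensembl GRCm38 annotation, per the file headers, with no release named there. The submitters' processing notes also name HISAT2 2.2.1, SAMtools 1.9, deepTools 3.3.0, CASAVA 1.9 and FastQC 0.11.8. No file column was left out.

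Symbols were matched to 45143 of 46078 identifiers. Counts were tested with edgeR 4.0.16 in R 4.3.3 (TMM factors, filterByExpr, robust quasi-likelihood fit, two-sided, only the libraries compared, Benjamini-Hochberg over all genes tested). "Rose" and "fell" mean an adjusted p under 0.05. SE is the absolute log2 fold change divided by the square root of F. Alternatives used limma 3.58.1 (voom) and DESeq2 1.42.0, and the test was checked on simulated data. Replicates differed beyond the noise of counting, at a chi-square per degree of freedom of 2.60 to 94.4.

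The 10 genes, the related lists and the tests were chosen with earlier results of these data known. All 10 are named in every comparison. Each related list gives up to 4 called genes per direction by size, or, with none called, examples from the 2 with the smallest p. The rule for sequences was up to 4 genes with most motif matches; 2 were printed, and the half-site was added to the search later.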

Additional observations from a re-analysis of the deposited data

How the results depend on the processing

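Across the alternatives, the calls of Fos and Jund between sorted cells and E12.5 tissue held in each of 17 settings. Fosb passed the filter on low counts through the sorted libraries alone, so its calls are no test. Its fitted log2 fold change ran from 5.60 to 7.10 over the 17 alternatives. The counts of the 10 genes given in this section for this comparison include Fosb. The number of the 10 genes called higher was 6, where 4963 of all 15968 genes tested were. It was 4 with library totals (3590 of 15968 genes) and 3 with the libraries labelled knockout in place of the controls (4005 of 16319). When 1 library was left out it was 3 to 6. The share of all genes called in either direction was then 47.8% to 69.3%, and 62.3% in the main test. The number called lower was 0, where 4992 of all genes were. It was 1 with library totals (6525 of 15968 genes) and with gain libraries in place of GFP controls (6278 of 16035). It was also 1 with gain libraries against the libraries labelled knockout (5915 of 16339), an alternative added after seeing the data. Directions of small differences turned. Klf6 (main 0.066, log2) was -0.21 with library totals, -0.080 with the replicate block over replicates 1 and 2 only, -0.29 with gain libraries in place of GFP controls, -0.16 with the libraries labelled knockout in place of controls, -0.20 with all 6 sorted against all 5 unsorted libraries and -0.52 with gain against labelled knockout. Jun was -0.15 with library totals, Ier2 0.013 with voom and 0.13 with gain libraries in place of GFP controls, and Atf3 0.35 with voom. Leaving out 1 library gave -0.17 to 0.32 for Jun, -0.42 to 0.21 for Atf3 and -0.052 to 0.15 for Klf6. For added L3mbtl3, the count of genes called was 2 in the main test, 119 with DESeq2, 2001 with voom, 97 with all 11 libraries fitted together and 1 with a term for embryo sex. It ran from 0 (without GFP control replicate 2, where 693 genes had an unadjusted p under 0.05) to 415 (without GFP control replicate 1) when 1 library was left out. Of the 10 genes voom called 1 lower and the other settings 0. The edgeR call of L3mbtl3 itself needed GFP control replicate 2 (adjusted p = 0.0539 without it). The sex term turned Fosb (-0.16), Egr1 (-0.43) and Atf3 (0.051). Leaving out 1 library gave -0.43 to 0.76 for Fosb, -0.44 to 0.049 for Junb, -0.066 to 0.44 for Jun and -0.13 to 0.68 for Egr1. For the libraries labelled knockout, 1213 genes were called in the main test, 2266 with no filter on low counts, 15 with all 11 libraries fitted together, 654 with the sex term, 603 with heterozygotes only as controls, and 603 to 1785 with 1 library left out. Of the 10 genes, 2 rose in the main test, 1 with DESeq2, 0 with all 11 libraries, 1 with the sex term, 0 with heterozygotes only and 0 to 2 with 1 library left out. Klf4 (main 0.012) was -0.0678 with the sex term and -0.0048 with heterozygotes only, and Ier2 was -0.0095 with the sex term. Leaving out 1 library gave -0.077 to 0.11 for Klf4, -0.18 to 0.012 for Jun, -0.17 to 0.39 for Junb and -0.011 to 0.30 for Ier2. The cause of these changes was not tested.

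Replicate numbers were not used to pair the libraries in the main tests. Deviations from the group means correlated at 0.184, -0.00537 and 0.292 between GFP control and gain libraries of the same number. Between those of different number the correlations ran from -0.305 to 0.141. Heterozygote and knockout libraries of the same number correlated at -0.0433. With 2 libraries in each of these groups, the value for different numbers is the same with its sign turned (0.0433). These values do not settle whether the numbers mark pairs. With the replicate number as a block, 3 genes (0.0204% of those tested) were called with added L3mbtl3 and 0 of the 10. For the libraries labelled knockout the blocked fit had to leave out the wild-type library. It called 324 genes (1.98% of those tested) and 0 of the 10, with Klf4 at -0.0141. Leaving out the wild-type library with no block already gave 603 genes (3.69%) and 0 of the 10. Between sorted cells and tissue the blocked fit held only replicates 1 and 2 of the GFP controls and heterozygotes. It called 8760 genes (54.4% of those tested) and 5 of the 10, Junb missing the threshold (edgeR adjusted p = 0.0567). The effect of the block was not separated from that of the fewer libraries. Where leaving out a library left an arm with 1, that library was assumed to vary like the others. Depth limited Fosb in unsorted tissue, at 0 to 6 counts a library, and Fos there, at 8 to 23. It also limited Atf3, at 12 to 41 counts over all 11 libraries.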
